A study of Arabidopsis thaliana with 44 samples.

Results

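Sites in introns were examined in a base-resolution m6A map of Arabidopsis. They were the listed sites of chromosomes 1 to 5 that the deposited annotation places in an intron, 862 of 188282 sites listed for 9 tissues, in 600 genes. A second table, of mta and Col seedlings, held 66 intronic sites among 50458 listed sites, in 56 genes, and 38 intronic sites were in both tables. In a given tissue, a site counted as an m6A site if the authors had marked it as passing their calling and at least 20 reads covered it. This held for 566 intronic sites in 373 genes, or 0.331% of the 170958 nuclear m6A sites found in at least 1 tissue, and the other 296 listed intronic sites carried the mark only at a lower depth.

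The study compared m6A among organs through the life cycle, and asked which sites depend on the methyltransferase MTA. The mta plants carried ABI3::MTA in an mta mutant, so that MTA is expressed from an embryo promoter, and their seedlings were 8 days old. For the Col seedlings set beside them, the sources used here give no harvest day. The 9 tissues came from the Col-0 accession: seedlings at day 7, shoots and roots at day 14, rosette leaves at day 30, cauline leaves, stems, flowers and siliques after flowering, and dry seeds. Each tissue and genotype had 2 biological replicates, each with a library treated with MjDim1 and an untreated input library, all from polyA-tailed RNA. On genes, the treated libraries of the tissues held 10382637 to 14693950 reads and the input libraries 3355823 to 6903234. The deposited depth and fraction of a site pool both replicates, and single sites therefore have no replicate error.

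N6-methyladenosine is the most common internal mark of mRNA, and is written onto nascent RNA in the nucleus by a complex that contains MTA and MTB. Since introns are removed by splicing, a site in an intron is read in polyA-tailed RNA only from molecules that keep the intron, such as retained introns, unspliced precursors, unannotated exons or transcripts that end within the intron. The method reads m6A as a mutation during reverse transcription, so that a base that differs from the reference for another reason can also appear as a site.

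The letters around each site were read from the TAIR10.1 assembly in RefSeq, whose bases matched the deposited 5-base motif at all 928 intronic entries of both tables. The 12 sites found in the most tissues are shown as 41 bases, 5′ to 3′ on the strand of the gene, with the 5-base motif in capitals and the m6A in its middle, since their letters show which motifs recur and how near some sites lie to a splice junction.
AT4G25550 (chr4:13049284-13049324, + strand): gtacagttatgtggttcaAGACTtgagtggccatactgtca
AT4G32390, site 1 (chr4:15637895-15637935, + strand): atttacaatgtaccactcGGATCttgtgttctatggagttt
AT4G32390, site 2 (chr4:15637846-15637886, + strand): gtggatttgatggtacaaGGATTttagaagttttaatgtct
AT1G56500, site 1 (chr1:21161811-21161851, + strand): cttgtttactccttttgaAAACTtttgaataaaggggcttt
AT1G56500, site 2 (chr1:21161881-21161921, + strand): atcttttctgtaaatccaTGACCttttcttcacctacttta
AT1G56500, site 3 (chr1:21161844-21161884, + strand): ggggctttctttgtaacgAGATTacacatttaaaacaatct
RCD1 (chr1:11614988-11615028, + strand): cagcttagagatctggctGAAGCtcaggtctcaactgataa
AT4G36980 (chr4:17435000-17435040, - strand): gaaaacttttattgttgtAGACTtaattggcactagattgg
AT1G73885 (chr1:27787607-27787647, + strand): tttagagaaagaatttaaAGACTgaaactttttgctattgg
SCPL13 (chr2:9781270-9781310, + strand): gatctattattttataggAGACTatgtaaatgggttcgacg
AGT, site 1 (chr2:5540313-5540353, - strand): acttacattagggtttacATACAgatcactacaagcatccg
AGT, site 2 (chr2:5540315-5540355, - strand): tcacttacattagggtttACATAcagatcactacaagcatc
Of these 12 sites, the AGACT motif stands at 4, and both AGT sites lie in the last 10 bases of their intron, with neither GAC nor AAC around the m6A.

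The site in AT4G25550, whose product is annotated as the 25 kDa subunit of a cleavage and polyadenylation specificity factor, was an m6A site in all 9 tissues. It lies in intron 2 of 6, 112 nt from the 5′ splice junction of an intron of 657 nt. Its fraction was 0.333 in seedlings, 0.537 in shoots, 0.446 in roots, 0.537 in rosette leaves, 0.597 in cauline leaves, 0.681 in stems, 0.629 in flowers, 0.633 in siliques and 0.392 in seeds. Fractions were thus lowest in seedlings and seeds and highest in stems, at depths of 20 reads in rosette leaves to 268 in seeds. The gene held 5 intronic and 12 exonic m6A sites, and its other intronic sites stood downstream in the same intron, each in 1 to 3 tissues. The second site found in all 9 tissues was in AT4G32390, annotated as a nucleotide-sugar transporter family protein, 70 nt into an intron of 87 nt in the 3′ UTR. Its fraction ranged between 0.322 in roots and 0.524 in seeds, with a mean of 0.442 and depths of 50 to 282 reads. The other site in this intron, 21 nt into it, was found in 7 tissues at a mean fraction of 0.161. Both sites have GAT around the m6A.

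AT1G56500, annotated as a haloacid dehalogenase-like hydrolase, carried 3 of the 12 sites, between 80 and 150 nt into intron 7 of 27. The first had a fraction of 1 in each of the 8 tissues where it was an m6A site, and 0.634 in seeds at a depth of 17 reads. The second and the third averaged 0.552 and 0.270 over 7 tissues, with ranges of 0.461 to 0.626 for the second and 0.221 to 0.319 for the third. Without the mark in roots, the second was at 0.330 (18 reads) and the third at 0.148 (44 reads). In seeds they were at 0.350 and 0.189, at 4 and 13 reads. Reads at the first of them were not scarcer than at the exonic m6A sites of the gene, at a median of 2.34 times their depth. RCD1, a regulator of stress and hormone responses, had a site 102 nt into intron 4 of 7 with fractions of 0.699 to 1 in 8 tissues. In roots the fraction of this site was 0.282 at 192 reads, without the mark. The site in AT4G36980, annotated as a CLK4-associating serine/arginine-rich protein, was found in every tissue but seed, where 11 reads covered it, at fractions of 0.106 to 0.243. AT1G73885, annotated as an AT-rich interactive domain protein, had a site covered by 123 to 749 reads, at 0.143 to 0.228 in 8 tissues and 0.0671 in roots. The site of SCPL13, a serine carboxypeptidase-like protein, was found in 7 tissues at 0.237 to 0.459, and had 0 reads in roots and 3 in seeds.

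Both sites of AGT, an aminotransferase of photorespiration, had a fraction of 1 in the same 6 tissues. They also had a fraction of 1 in flowers, at 71 and 68 reads, but no mark there. They lie 4 and 6 nt from the 3′ splice junction, and their depth was 0.0497 and 0.0489 times that of the exonic m6A sites of the gene (median over tissues). AGT itself averaged 2907.5 CPM (reads on the gene scaled to the library's total on all genes) in the input libraries of cauline leaves and 32.4 CPM in those of roots, where 4 reads covered each of the sites.

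**Figure D1:**
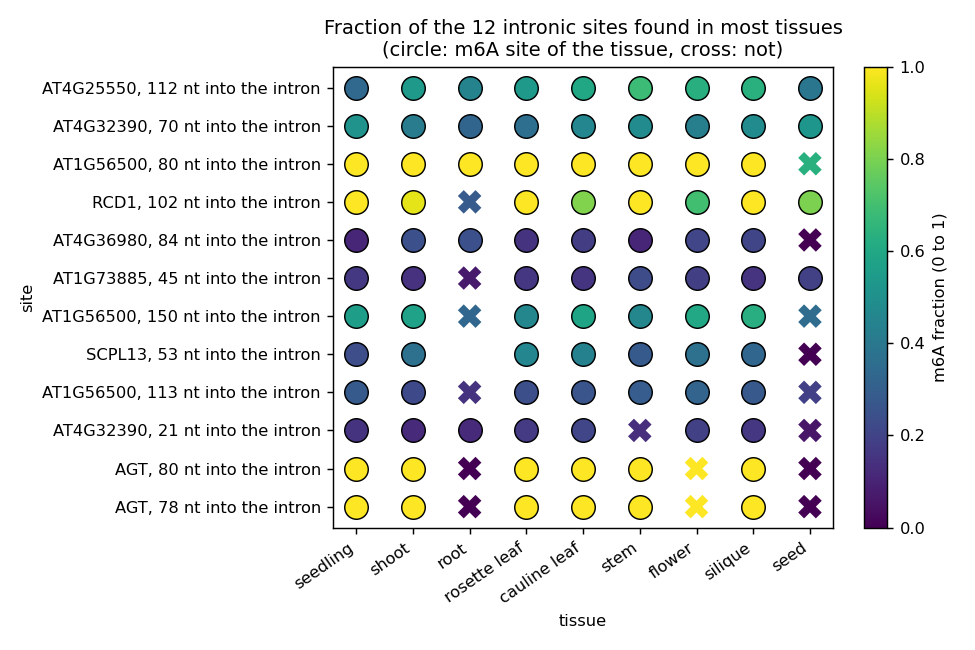
Fraction (colour, 0 to 1) of the 12 intronic sites found in most tissues, one row per site and one column per tissue; circles mark tissues where the site was an m6A site and crosses tissues where it was not, and the empty cell had no reads. The AT4G25550 and upper AT4G32390 rows are circles in all 9 tissues, and the AGT rows and the upper AT1G56500 row are at 1 wherever they are circles.

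Most intronic sites were found in few tissues. Of the 566 sites, 431 were m6A sites of 1 tissue, 80 of 2, 55 of 3 or more and 2 of all 9. The share found in 1 tissue was 76.1% (95% Wilson interval 72.5 to 79.5%) for introns, 60.7% for CDS and 37.7% for the 3′ UTR. These intervals cover counting error only, and sites of a gene are not independent. Depth differs with the region and bears on the share: intronic sites of 1 tissue had 20 reads in a median of 3 tissues, and 144 of the 566 had 20 reads in a single tissue. Among sites with 20 reads in all 9 tissues, 24 of 53 intronic sites (45.3%) were found in 1 tissue, against 52.4% of 47993 CDS sites and 27.0% of 24510 3′ UTR sites. Depth was matched by this minimum alone, and these differences were not tested. A fraction of 0.1 or more was seen at 20 reads or more in another tissue, without the mark, for 172 of the 431 sites of 1 tissue.

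Cauline leaves had 137 intronic m6A sites, shoots 123, seedlings 122, roots 109, stems 81, flowers 80, seeds 78, siliques 69 and rosette leaves 52. As a share of all nuclear m6A sites of the tissue, the range was 0.104% in siliques to 0.248% in cauline leaves. Roots had the most sites found in that tissue alone, 78 of their 109, and seeds 53 of 78. Siliques had the fewest relative to their number, 24 of 69, and rosette leaves had 19 of 52.

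**Figure D2:**
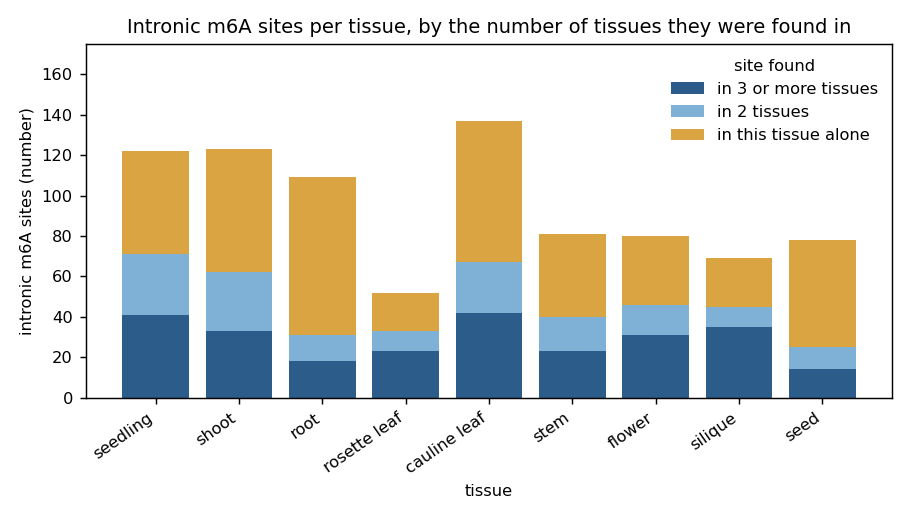
Number of intronic m6A sites in each tissue, split by whether the site was found in 3 or more tissues, in 2 or in this tissue alone. Bars reach 137 sites in cauline leaf and 52 in rosette leaf, and the part found in the tissue alone is 78 sites in root.

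The level of the host gene moved with these calls. The tissue with the single call was the one with the highest CPM of the host gene for 204 of 431 sites (47.3%), against 25.7% for CDS sites and 36.1% for 3′ UTR sites of 1 tissue. It was among the 3 highest tissues for 337. A level of 100 CPM or more in some tissue was reached by 223 of the 373 host genes (59.8%), against 24.9% of all genes with an m6A site. The share of genes with an intronic m6A site was 1.46% among genes with a highest level below 10 CPM, 0.878% between 10 and 100 CPM, 3.65% between 100 and 1000 CPM and 18.4% at 1000 CPM or more. The part of read number in these shares was not tested.

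For each tissue, the intronic site found there alone at the highest fraction, among sites with 20 reads in 5 or more tissues, had a fraction of 1. They were in INO80 (a chromatin remodeler) for seedlings, AT1G66260 (an RNA-binding protein) for shoots, BPS1 for roots, UAP56a (an RNA helicase of mRNA splicing and export) for rosette leaves, AT1G58150 for cauline leaves, CAT3 (a catalase) for stems, AT4G31980 for flowers and for seeds, and BXL1 (a beta-xylosidase) for siliques. These sites had GAC at none and AAC at 1, that of AT4G31980 in flowers. In INO80 the fraction was 1 at 37 reads in seedlings and 0 in the other 8 tissues, 4 of them with 20 reads or more. The site in AT1G66260 had a fraction of 1 at 105 reads in shoots and 0 in each of the other tissues, with 142 reads in roots. In contrast, the CAT3 site was also at 1 in shoots at 45 reads and in siliques at 22 reads, without the mark, and at 0.768 in flowers and 0.377 in cauline leaves. Thus an absent mark did not always go with a low fraction.

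The motif of intronic sites was mainly RAC, where R is A or G. The share of RAC sites averaged 60.7% in introns, 60.4% in CDS and 62.1% in the 3′ UTR over the 9 tissues. Introns minus CDS gave 0.35 ± 7.66 percentage points (SD over 9 tissues, p = 0.879, two-sided exact sign-flip permutation test, adjusted p = 0.879 over 6 results), higher in 5 of 9 tissues. Introns minus 3′ UTR gave -1.34 ± 3.95 points (exact p = 0.336, adjusted p = 0.403), lower in 7 of 9. Neither difference exceeded the spread between tissues as called here, but the outcome turned on the calling. With a fraction above 0.05 and no need of the mark, introns minus CDS was 7.72 points (exact p = 0.0117) and introns minus 3′ UTR 6.32 points (exact p = 0.0078125). Without sites at a fraction of 1 in any region, they were 5.62 (exact p = 0.0469) and 11.3 points (exact p = 0.00390625). The smallest p that 9 tissues allow is 0.00390625, and the tissues share genes and sites, so this p measures the spread between tissues.

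Counted once each over the tissues, 59.0% of intronic, 48.6% of CDS and 53.8% of 3′ UTR sites had RAC. Of the 566 sites, 270 had GAC (47.7%), 64 AAC (11.3%), 69 GAT (12.2%) and 163 another triplet (28.8%). CDS sites had GAC at 44.0% and AAC at 4.58%, and 3′ UTR sites had GAC at 25.1% and AAC at 28.7%. Among all adenosines in the introns of the host genes, 2.43% stand in GAC, 5.37% in AAC and 6.39% in GAT. On the authors' spike-in probes, which hold set fractions of m6A, the mutation ratio was much higher at GAC than at AAC. Its part in these motif counts was not tested. The 5-base motifs with the most intronic sites were AGACA (71), AGACT (69), TGACA (43), AGACC (24) and AGATG (22), of 111 motifs seen. AAACT, the motif of 6.97% of the 3′ UTR sites, was that of 3.0% of the intronic sites. Of the 55 sites found in 3 or more tissues, 33 had GAC (60.0%), against 193 of the 431 sites of 1 tissue (44.8%), and another triplet was seen at 10 (18.2%) against 133 (30.9%).

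The base composition within 50 bases of the sites was close to that of the 3′ UTR. Introns had 36.5% T and 17.5% G, CDS 27.5% T and 23.2% G, and the 3′ UTR 38.3% T and 17.2% G, with no test made. The poly(A) signal AATAAA stood within 100 bases of 12.7% of the intronic sites on the same strand and 24.9% on the opposite strand. At the centres of the 23988 annotated introns long enough to hold such a window in genes with an m6A site, the shares were 11.7% and 26.2%. TGTA, searched as the core of plant m6A reader and polyadenylation motifs, stood in 61.8% of the windows of intronic sites on the same strand and 55.1% on the opposite one, in 69.9% and 52.1% at intron centres, and in 81.3% and 59.0% at 3′ UTR sites. The 2 motifs can share at most 1 base.

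The fraction of RAC sites was higher in introns than in CDS and lower than in the 3′ UTR. RAC pools GAC and AAC, and AAC made up 11.3% of intronic, 4.58% of CDS and 28.7% of 3′ UTR sites. The part of this mix in the differences was not tested. The median over intronic RAC sites was 0.304 in seedlings, 0.256 in shoots, 0.262 in roots, 0.263 in rosette leaves, 0.267 in cauline leaves, 0.332 in stems, 0.329 in flowers, 0.330 in siliques and 0.358 in seeds. The values of introns did not overlap with those of the other regions: CDS medians lay between 0.174 in roots and 0.234 in siliques, and 3′ UTR medians between 0.608 in seeds and 0.720 in cauline leaves. Introns minus CDS averaged 0.0903 ± 0.0388 (SD over 9 tissues, exact sign-flip p = 0.00390625, adjusted p = 0.0078125), higher in 9 of 9 tissues. Introns minus 3′ UTR averaged -0.376 ± 0.0583 (exact p = 0.00390625, adjusted p = 0.0078125), lower in 9 of 9. The median depth of the intronic sites was 39 to 69.5 reads over the tissues, against 93 to 145 for CDS and 69 to 117 for 3′ UTR sites. With at least 50 reads, the mean difference from CDS was 0.0322 (exact p = 0.0390625), and its dependence on depth was not tested further.

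**Figure D3:**
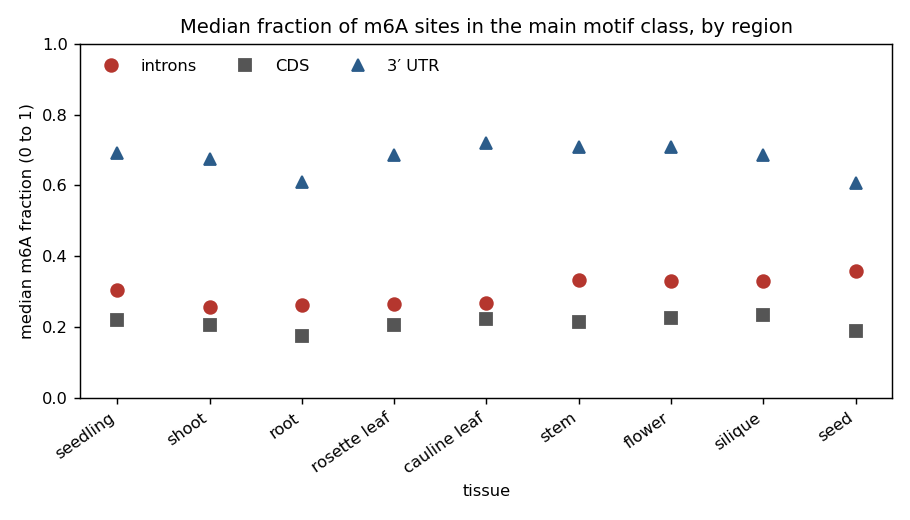
Median m6A fraction (0 to 1) of RAC sites in each tissue, in introns, CDS and 3′ UTR. The 9 intron medians, 0.256 to 0.358, sit above all CDS medians and below all 3′ UTR medians.

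Fractions separated by motif. As GAC gave a much higher mutation ratio than AAC on the spike-in probes, the fractions of these motifs rest on unlike signals before calibration. The part of this in the fractions was not tested. At GAC the median over sites of the highest fraction in any tissue was 0.258 in introns, 0.228 in CDS and 0.571 in the 3′ UTR. At AAC it was 0.946 in introns, 0.654 in CDS and 0.984 in the 3′ UTR, and 31 of the 64 intronic sites reached a fraction of 1. At sites with another triplet it was 1 in introns, 0.238 in CDS and 0.725 in the 3′ UTR. Of these intronic sites 83 of 163 reached 1, while no GAT site and 7 of 270 GAC sites in introns did so. In all, 121 of 566 intronic sites (21.4%) reached a fraction of 1, against 7.78% of CDS and 29.4% of 3′ UTR sites. In each tissue, 13.1% (cauline leaf) to 27.5% (root) of the intronic sites were at 1.

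Within genes, the comparison with exons was less firm. The median difference between an intronic site and the mean of the exonic m6A sites of its gene averaged 0.0321 ± 0.0297 (SD over 9 tissues, exact sign-flip p = 0.0195, adjusted p = 0.0293), above 0 in 8 of 9 tissues. It was -0.0177 (exact p = 0.0117), the reverse direction, with a fraction above 0.05 and no need of the mark. It was -0.00871 (exact p = 0.508) when sites with a fraction of 1 were left out of every region, and 0.0111 (exact p = 0.188) without the intronic sites within 10 nt of a splice junction. Shoots were the exception, where 42.3% of 97 intronic sites exceeded their gene's exonic mean. In addition, 350 of the 373 host genes (93.8%) held an exonic m6A site in some tissue, and 23 held none.

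Intronic sites were read at a lower depth than the exonic m6A sites of their genes. The median depth ratio to the exonic m6A sites of the gene was 0.335 in seedlings, 0.506 in shoots, 0.167 in roots, 0.172 in rosette leaves, 0.146 in cauline leaves, 0.202 in stems, 0.416 in flowers, 0.333 in siliques and 0.194 in seeds. On the log2 scale the ratio averaged -2.0 ± 0.65 (SD over 9 tissues, exact sign-flip p = 0.00390625, adjusted p = 0.0078125), below 0 in 9 of 9 tissues. Only introns with 20 reads enter, so that introns kept in fewer molecules are not in this ratio. Over the 490 sites with a ratio, 196 were at 0.1 or less and 143 at 0.5 or more, among them 52 above 1. The ratio was 1.03 at AT1G73885, whose gene had 1 exonic m6A site, and 1.01 at AT4G36980, whose gene had 15. These intronic bases were thus read about as often as those exonic m6A sites, in contrast to those of AGT.

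Introns with an m6A site were long for Arabidopsis. Their median length was 286 nt (quartiles 116 and 563 nt, n = 398 introns), against 102 nt for the 105190 annotated introns of genes with an m6A site. Introns of 300 nt or more made up 48.0% of the introns with a site and 13.6% of all annotated introns. As a longer intron offers more adenosines, sites are better set against nucleotides: 57.1% of the sites and 40.9% of the intron nucleotides were in introns of 300 nt or more. Of the sites, 517 were in introns within the coding region, 36 in the 3′ UTR and 13 in the 5′ UTR. The first intron held 192 (33.9%) and the last 245, and both counts include 102 sites in an only intron. These counts were not set against all annotated introns. Sites were often found together. In 103 introns, 2 or more sites were found, 271 sites in all, with a median gap of 52.5 nt between neighbours and 83 of 168 gaps within 50 nt.

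A group of 53 sites lay within 10 nt of a splice junction, 36 at the 3′ end and 17 at the 5′ end of the intron. Listed sites came no nearer than 4 nt to the 3′ and 7 nt to the 5′ junction, and the deposited annotation has a label of its own for splice sites. Of the 53, 26 (49.1%) had a highest fraction of 1, against 95 of the 513 sites further in (18.5%). RAC stood at 39.6% of them (95% Wilson interval 27.6 to 53.1%), against 61.0% (56.7 to 65.1%) further in, and GAC at 1 of the 26 with a fraction of 1 and 17 of the 27 below 1. Those 17 include a TGACA site 4 nt from the 3′ junction in each of LpxC1, LpxC3, LpxC4 and LpxC5. The 51 bases around each of these occur more than once in the genome, so they are not independent. The median of the mean fraction was 0.943 within 10 nt and 0.300 further in. In the next bins, from 11 to 25 nt on, it was 0.261 to 0.342. The bases between site and junction were set against the exon across the junction, that is the bases that a spliced molecule holds in their place. They were identical at 52.5% of 122 bases for sites at a fraction of 1 and 43.0% of 142 bases for the others, against 37.5% for adenosines at these distances in all annotated introns, and the exon base in place of the m6A was not A for 22 of the 26 sites at 1 and 23 of the 27 others, against 70.3% in all annotated introns. The values of all annotated introns pool these distances and were not matched to the distances of the sites. Differences from them therefore cannot be told apart from where the sites lie. The part of alignment across the junction in these fractions was not tested.

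**Figure D4:**
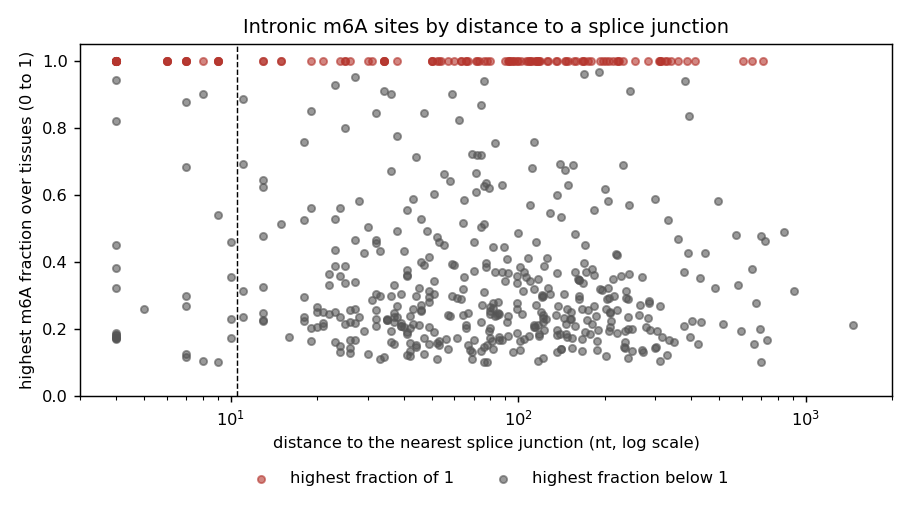
Highest m6A fraction over tissues (0 to 1) of each of the 566 intronic m6A sites by its distance to the nearest splice junction (nt, log scale); the dashed line separates sites within 10 nt, and red points are at a fraction of 1. Left of the line 26 of 53 sites are at 1, and right of it 95 of 513.

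The 373 host genes held between 1 and 9 sites each, and 258 of them held 1. AT2G23790, annotated as a calcium uniporter, had 9 sites in its single intron of 753 nt. One of them, with AGACA, was found in 6 tissues at fractions of 0.217 to 0.432, and the other 8 were found in 1 or 2 tissues each at 0.114 to 0.285. AT2G25590, a Tudor-like protein, and AT4G31980, annotated as a thiol peptidase family protein, had 7 sites each. Of the 7 in AT2G25590, 6 stood in intron 4, where a site with GGATG was found in 5 tissues at 0.242 to 0.428 and one with GAACA in 3 tissues at 0.937 to 1. In AT4G31980 all stood 13 to 191 nt into an intron of 1288 nt, 4 of them reaching a fraction of 1, and an AGACA site was found in 4 tissues at 0.360 to 0.624. The KH-domain gene AT2G25970 had 6 sites in an intron of 1522 nt: a site with AAAGG, 917 nt into the intron, was at a fraction of 1 in 5 tissues, and one with AGACA, 696 nt into it, at 0.304 to 0.477 in 5 tissues. EXT4 (a cell wall extensin), AT4G31405 and AT5G02650 also held 6 sites each, with 5 in LpxC2, AT3G61010 and AT4G25550, and 4 in AT1G11270 and RCD1. In EXT4, the 6 sites were called in roots or shoots alone, 4 of them at a fraction of 1 and none with RAC. Depths were 0 to 785 reads over the tissues. The CCAGT site was also at 1 in 7-day seedlings, at 521 reads without the mark. The level of EXT4 was 156.8 CPM in seedlings, 100.9 in roots, 61.6 in shoots and at most 5.6 in the other tissues, so these calls are not particular to roots and shoots.

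Some of these genes cannot be placed with certainty. The 51 bases around the site occur more than once in the genome for 49 of the 566 sites, 13 of them also in the chloroplast or mitochondrial genome. All 5 sites of LpxC2 and all 4 of AT1G11270 are of this kind, with 4 and with 5 to 11 nuclear copies, as are 3 of AT4G31405 and 2 of EXT4. The level of LpxC2 was at most 0.4 CPM in every tissue while its intron was read at up to 1566 reads at a site, and reads of the copies cannot be told apart. A further 33 sites lay opposite an exon of a gene on the other strand, and 5 listed sites in an exon of another gene on the same strand. No site lay in an annotated exon of another transcript of its own gene.

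Genes of photosynthesis recurred among the hosts. They were chosen by symbol (LHC, PSA, PSB and RBCS) after their values were seen. Of 47 such genes with a listed site, 21 (44.7%) held an intronic m6A site, against 1.88% of all genes with a listed site. They included 9 light-harvesting proteins, 7 subunits of photosystem I, 3 of photosystem II and 2 small subunits of Rubisco. A level of 1000 CPM or more in a tissue was reached by 20 of the 21. At this level there were 36 genes of these families, and 364 genes in all, of which 67 held an intronic m6A site. Their 27 sites were called in seedlings (16), cauline leaves (11), rosette leaves (10), shoots (3), siliques (3) and flowers (1), and in none of stems, roots and seeds. In stems the mark was absent, but the fraction was not always low: it was 0.410 at 79 reads in LHCB2.2 and 0 at 31 reads in PSAE-1. In roots and seeds at most 4 reads covered any of these sites, so they could not be called there. GAC stood at 17 of the 27 sites. LHCA4 had 3 sites, at 0.108 to 0.126 in seedlings, rosette leaves and cauline leaves for one, 0.146 and 0.206 in rosette and cauline leaves for the next, and 0.250 in cauline leaves for the last. LHCB2.2 had an AAC site at 0.643 in seedlings, 0.277 in rosette leaves, 0.514 in cauline leaves and 0.821 in siliques. This site was covered by 54 to 326 reads there and lay 4 nt from a 3′ splice junction. The near-identical paralogs LHCB2.1 and LHCB2.3 had sites at 0.322 in rosette leaves and at 0.478 and 0.173 in seedlings. Reads may be shared between these genes. The LHCB2.1 site and the LHCB2.3 site at 0.173 also lay 4 nt from a 3′ junction. So did a site of PSBP-1, at 0.943 in cauline leaves. LHCA1 had a site 9 nt from a 3′ junction at a fraction of 1 in seedlings and rosette leaves, and one with TGACA at 0.174 in seedlings and 0.149 in rosette leaves.

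Of 22 SR and GRP splicing factors, RS31 and GRP7 held intronic m6A sites. GRP7, a clock-controlled RNA-binding protein that binds its own transcript and alters its splicing, had a site at 0.103 in shoots (550 reads), 0.114 in cauline leaves (2880 reads) and 0.170 in siliques (258 reads). In flowers, at 3875 reads, the fraction was 0.0838, below any fraction with the mark. RS31, whose long intron is alternatively spliced, had a pair of sites 11 nt apart. The first was at 0.835 in seedlings, and at 0 to 0.506 without the mark in the other tissues. The second was at 0.176 in seedlings and 0.145 in seeds. Of 14 clock genes, PRR7, a repressor of morning genes, had a site at 0.252 in shoots, and RVE8, an activator of evening genes, one at 0.216 in rosette leaves, where the level of RVE8 was highest (88.3 CPM). The RVE8 site had 49 reads there and at most 12 in any other tissue, so it could not be called elsewhere. Of 10 genes known for regulated intronic processing or the autonomous pathway, the flowering repressor MAF2 (AGL31 in the table), whose intron retention depends on temperature, had a site at 0.646 in stems, 0.353 in rosette leaves and 0.257 in seedlings. In seeds its fraction was 0 at 35 reads. None of 9 writers and readers of m6A had one. Thus 5 of the 55 genes of these lists carried an intronic m6A site, in 1 to 3 tissues each, against 1.88% of all genes with a listed site, and nothing particular to a list can be read from counts this small.

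In the comparison of mta with Col, the MTA transcript was lower in mta. It was read at 3.74 and 2.98 TPM in the mta input libraries, against 5.94 and 5.99 TPM in the Col input libraries, and at 1.78 and 2.22 TPM in mta treated libraries, against 4.66 and 5.04 TPM in Col treated libraries. The groups did not overlap in either kind of library. In the input libraries the difference was -0.68 ± 0.14 on the log2(TPM + 1) scale (SE, limma adjusted p = 0.0119).

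Of the 66 intronic sites of this table, 24 sites in 16 genes had 20 reads in both genotypes. The mark was not required here: 14 of them carried it in Col, and 7 of these 14 were lower in mta. Over all 24 sites, the fraction was lower in mta at 11, equal at 7 and higher in mta at 6. The median difference was 0, with medians of 0.290 in mta and 0.408 in Col. The share lower in mta was 45.8% (95% Wilson interval 27.9 to 64.9%). It was 38.2% of 20911 CDS sites and 67.7% of 12551 3′ UTR sites, with median differences of 0.02 and -0.09. Without the sites at a fraction of 1 in both genotypes, the share was 61.1% of 18 intronic sites (38.6 to 79.7%), 39.0% of CDS sites and 72.2% of 3′ UTR sites. The interval of the introns included the share of CDS but not that of the 3′ UTR over all sites, and included both without the sites at 1. Sites of a gene are not independent, and with 1 pooled fraction per genotype no test was made.

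**Figure D5:**
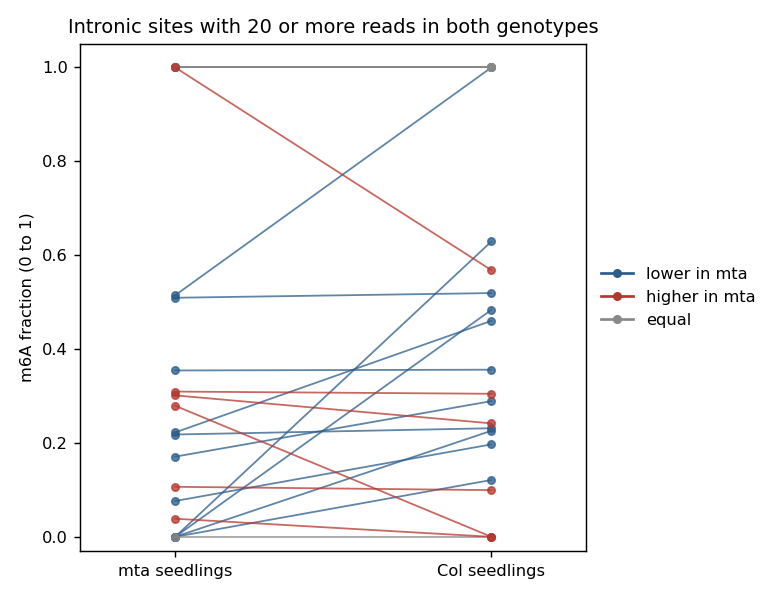
m6A fraction (0 to 1) of the 24 intronic sites with 20 or more reads in both genotypes, with mta seedlings on the left and Col seedlings on the right; each line is a site, blue where lower in mta (11), red where higher in mta (6) and grey where equal (7). The lines of 6 equal sites overlap at 1, and 1 equal site lies at 0.

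By motif, 5 of 6 AAC sites were lower in mta, with a median difference of -0.35, and 2 of 6 GAC sites. The 5 AAC sites include those of HOS10 and LpxC2 given below. AAC sites were lower in mta at 36.6% in CDS and 61.9% in the 3′ UTR, and GAC sites at 40.8% and 73.4%. With 6 intronic sites for each of AAC and GAC, nothing particular to a motif can be read from these counts. Of the 9 sites with another triplet, 5 were at the same value in both genotypes. The largest negative differences were those of a further site of AT1G56500, 127 nt into intron 7, at 0 in mta (100 reads) against 0.629 in Col (89 reads), that of Lhca5, a minor light-harvesting protein of photosystem I, at 0.515 in mta against 1 in Col, and that of AT2G36320, an A20/AN1-like zinc finger protein, at 0 in mta against 0.484 in Col. All of them have AAC. Next came AT1G56500 at site 2 of those shown (0.222 in mta, 0.460 in Col), HOS10 (0 in mta, 0.226 in Col), PSAL (0 in mta, 0.121 in Col), AT1G73885 (0.0763 in mta at 477 reads, 0.197 in Col at 409 reads) and AT1G56500 at site 3 of those shown (0.171 in mta, 0.289 in Col). The HOS10 and PSAL sites carried the mark in neither genotype. The differences that followed were small, at AT4G32390 (0.218 in mta, 0.231 in Col) and LpxC2 (0.509 in mta, 0.519 in Col). Fractions higher in mta by 0.1 or more were seen in AT4G23670 (1 in mta, 0.568 in Col) and LHCB5 (0.279 in mta, 0 in Col). The AT4G23670 site carried the mark in neither genotype, and the LHCB5 site in mta alone. At a fraction of 1 in both genotypes were the first site of AT1G56500, both AGT sites, and sites of LHCA1, LpxC2 and EXT4. Of these 6, AT1G56500 alone has RAC, and 4 lie within 10 nt of a splice junction.

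The Col seedlings and the 7-day seedlings of the tissue series gave a second reading of the same sites. Of 20 intronic sites with 20 reads in both, 14 differed by 0.1 or less in fraction, and the median absolute difference was 0.0364. Pearson's r across these sites was 0.898, as a description over sites that share genes. The largest difference was 0.432, at AT4G23670, with 0.568 in Col and 1 in the 7-day seedlings, so the difference of mta from Col at this site was no larger than the difference between these 2 sets of seedlings. The site of AT1G56500 127 nt into intron 7 was at 0.629 in Col and 0.217 in the 7-day seedlings, and that of LHCB5 at 0 in Col and 0.0972 in the 7-day seedlings.

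The expression of the host genes was read from a fit over all genes. Of 373 host genes, 322 had a mean of at least 1 TPM, and of these 54 were higher in mta and 76 lower in mta (limma adjusted p below 0.05). With no filter on low values, 16 of 373 were higher in mta and 26 lower, against 4.80% of all genes called. Over all 18420 genes tested, 6.31% were called higher in mta and 20.6% lower in mta, 26.9% in all, so that the share of hosts lower in mta (23.6%) was near that of all genes and the share of hosts higher in mta (16.8%) was above it. The median log2 difference was -0.09 over host genes and -0.14 over all genes. Host genes are more highly expressed than most, and the part of level in these shares was not tested. Of the 21 photosynthesis hosts, 18 were higher in mta and none lower, with a median log2 difference of 0.22, and of the other 301 hosts 36 were higher and 76 lower. LHCB5 had 7409 and 7349 TPM in mta, against 6124 and 6123 TPM in Col. Among the hosts of recurrent sites, AT4G25550 had 29.5 and 30.6 TPM in mta, against 43.3 and 43.4 TPM in Col (log2 difference -0.51 ± 0.06, SE, limma adjusted p = 0.000861), and GRP7 126.3 and 126.1 TPM in mta, against 249.4 and 251.8 TPM in Col. RS31, PRR7 and AT4G32390 were also lower in mta, by 0.48, 0.60 and 0.46 on the log2 scale. The log2 difference was -0.04 for RCD1 and -0.07 for RVE8, neither past the threshold. AT1G56500, whose intron 7 carried 3 of the sites lower in mta, had 44.5 and 46.5 TPM in mta, against 36.4 and 36.6 TPM in Col.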

How the data were processed

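The authors ran their m6A-SACseq pipeline against TAIR10, with an aligner not given in the sources used here. Each deposited site has a depth (count of reads), an m6A fraction that the authors calibrated with spike-in probes, and a mark for passing their calling, all pooled over replicates. The lowest fraction with the mark was 0.1. Reads per gene of the tissue series were deposited as counts, and gene expression of mta and Col as TPM. The calibrated fraction is not a share of reads, so no interval was computed for it.

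The members, gene lists and tests were chosen with earlier results of these data known. Of the 110 chloroplast and mitochondrial sites labelled intronic, none was used. Introns were taken from TAIR10.1 in RefSeq, and the host gene from the deposited table. Regions were compared over 9 tissues with exact sign-flip permutation tests (two-sided), with Benjamini-Hochberg adjustment over 6 results. Host genes in mta and Col input libraries were read from limma 3.58.1 (R 4.3.3) on log2(TPM + 1), for genes averaging 1 TPM or more. The tests were tested on simulated data. CPM scale the reads of a gene to the library's total on genes. Named were up to 12 sites found in most tissues (ties by mean fraction), up to 12 genes with most sites, genes of the lists with an m6A site, the site of highest fraction found in a tissue alone with 20 reads in at least 5 tissues, and in mta and Col up to 10 largest drops and up to 5 rises of at least 0.1. The alternatives were other depth minima, other calling rules, leaving out rosette leaf, another pseudocount, no filter, leaving out each replicate and a replicate block. Added after the data were seen were fits without sites near splice junctions, at a fraction of 1, with a repeated 51-base window or opposite an exon.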

Additional observations from a re-analysis of the deposited data

How the results depend on the processing

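Of 76 alternative values, 61 were rated the same as the main value. These include the values for a fraction of at least 0.1 with the mark. No marked site had a lower fraction, so these values could not differ from the main ones. For the tested differences between regions this meant the same direction and side of the threshold. For the counts and the share lower in mta it meant a value of similar size. RAC share, introns minus CDS, was -1.68 points with at least 50 reads, -0.20 without repeated windows, 7.72 with a fraction above 0.05 without the mark and 5.62 without sites at a fraction of 1. Introns minus 3′ UTR was 6.32 with a fraction above 0.05 without the mark, 1.41 without sites near a junction and 11.3 without sites at 1. The within-gene difference was 0.0203 with at least 50 reads, -0.0177 with a fraction above 0.05 without the mark, 0.0111 without sites near a junction, -0.00871 without sites at 1 and 0.0207 without sites opposite an exon, and the causes were not tested. The differences in RAC fraction and depth kept their side throughout. The number of intronic m6A sites was 254 with at least 50 reads and 862 without a minimum, since the minimum sets how many are called. The share lower in mta was 45.2% to 61.1% over its 4 alternatives. Of the host genes, 42 of 373 were called without a filter on low values (4.80% of all genes) and 105 to 113 with a replicate left out, where the lone sample is assumed to vary like the others. With the replicate block 132 were called. Same-numbered samples deviated together by r = 0.0587, so the numbers are not taken to pair the samples. With 2 replicates per genotype, both pairs must give the same r. Depth limits the mta comparison to 24 of 66 sites. The comparison of exons of another transcript with introns of all transcripts was not run, as no site lay in such an exon.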
